A study of Solanum lycopersicum with 30 samples.

Results

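The step from a low to a high dose of ammonium was examined in roots of wild-type tomato (Solanum lycopersicum, WT). The 5 arrays titled high nitrogen were set against the 5 titled low nitrogen, 10 of the 30 arrays in the series, over every probe set except the array and reporter controls. Of the 10038 probe sets that remained, 7528 passed a filter on low signal and were tested. Affymetrix tomato arrays measured RNA from roots that had grown in a discrete patch of field soil. WT high N patches received 100 µM ammonium, WT low N patches 10 µM ammonium and WT water patches water, each by injection. The same 3 treatments were given to rmc, a tomato mutant with reduced mycorrhizal colonization, for which the labels write the doses as 65 and 6.5 ppm. In all groups 8-week-old plants, set out in a farm field, grew on for 5 weeks, and the roots of the patch were collected 24 h after the injection. Every root thus came from field soil and from an injected patch. The design text calls the 5 samples of a group biological replicates, without saying what separates them. The limma p-values rest on the spread between such samples within groups, shared over all 30 arrays. In whole roots, fewer cells of a type and less RNA per cell cannot be told apart.

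Ammonium enters root cells through transporters of the AMT1 family and is joined to glutamate by glutamine synthetase, in the cytosol or in plastids. The reaction consumes ATP, and the carbon skeletons that carry the nitrogen onward come from the organic acids of respiration. Glutamate dehydrogenase can release ammonium from glutamate again, and roots that meet a local nitrogen source are known to change both uptake and growth there.

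No probe set passed the test between the WT high N and WT low N arrays (0 of 7528, 0.0%, with limma at an adjusted p threshold of 0.05). The smallest adjusted p was 0.385. At an unadjusted p under 0.05 there were 672 probe sets (8.93%), of which 364 (4.84%) were higher and 308 (4.09%) lower in high N. By sign alone, 48.4% of probe sets were higher and 51.6% lower. The differences were small: the middle 90% of probe sets lay between -0.38 and 0.34 on the log2 scale, the median was -0.01, and 32 probe sets (0.425%) differed by more than 1. The median standard error was 0.14, and the median 95% interval reached 0.30 to either side of its difference. The highest single difference was 2.22 and the lowest -1.56.

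The arrays of both groups overlapped at the level of single probe sets almost everywhere. All 5 high N arrays lay above all 5 low N arrays for 131 probe sets (1.74%) and below them for 42 (0.558%). Among probe sets with a gene name, 8 were in the higher set, namely gdh1, PGH1, LOC543639, UCP, SCOA, LOC544064, GLUII and PYRB, and 2 in the lower set, Rab1C and AREB1. LOC544064 (0.11), GLUII (0.14), PYRB (0.36) and AREB1 (-0.27) were singled out here after their values were seen.

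Against water, more probe sets passed in high N than in low N. These counts do not test whether the 2 groups differ, and their direct comparison above called 0 of 7528. In high N against water 1374 probe sets passed the test (18.3%), 652 of them higher (8.66%) and 722 lower (9.59%) in high N, and 35.9% had an unadjusted p under 0.05. In low N against water 2 probe sets passed (0.0266%), both higher in low N, and 5.78% had an unadjusted p under 0.05. These comparisons share arrays with each other and with the step from low to high N, so their values are given side by side and no overlap between them is counted.

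**Figure D1:**
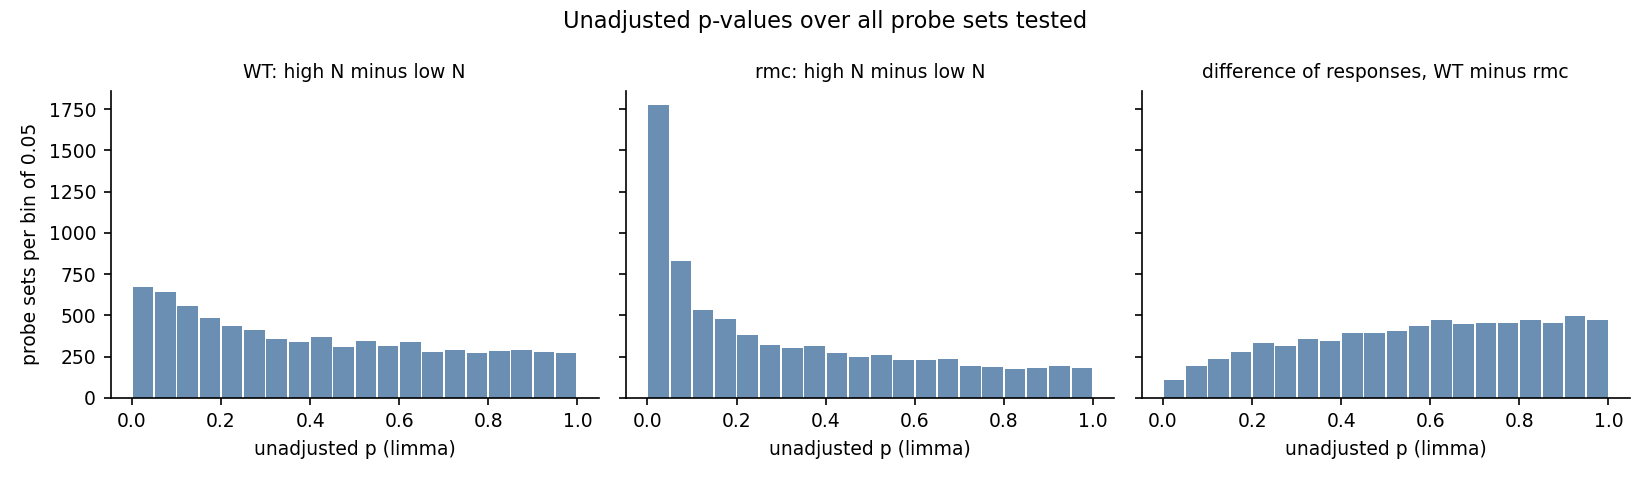
Number of probe sets in each bin of 0.05 of unadjusted p (limma, 7528 probe sets), for the step from low to high N in WT, for the same step in rmc, and for the difference between the 2 responses. The lowest bin holds 672 probe sets in WT, 1775 in rmc and 107 for the difference.

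The 10 arrays correlated with each other at 0.931 to 0.962 within high N, at 0.925 to 0.962 within low N and at 0.89 to 0.97 between these groups. Between 2.21% and 3.07% of probe sets per array stood at the lowest value of the table, 0. The difference between the 3′ and 5′ probe sets of GAPDH, a control that is sensitive to RNA length, averaged -0.12 ± 0.07 in high N and 0.05 ± 0.13 in low N (SD, n = 5 each). It was lower by 0.169 in high N (two-sided exact permutation p = 0.0317, adjusted p = 0.127 over the 4 control measures), and without low N replicate 5 by 0.226. That measure had the same sign in rmc, at -0.14 ± 0.15 in high N and 0.07 ± 0.13 in low N. The poly-A spikes, control RNAs added before labelling, averaged 8.34 ± 0.19 in high N and 8.52 ± 0.34 in low N (exact permutation p = 0.349). On the WT water arrays the GAPDH measure averaged 0.21 ± 0.11 and the spikes 8.67 ± 0.15 (SD, n = 5). By their means, both measures stood further from water in high N than in low N. The part of the spikes and of the GAPDH measure in the differences between the groups, those against water included, was not tested. Scaling to those spikes adds one amount to every difference between the groups: it moves the median of all probe sets to 0.17, and values between -0.17 and 0, list medians included, turn positive.

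**Figure D2:**
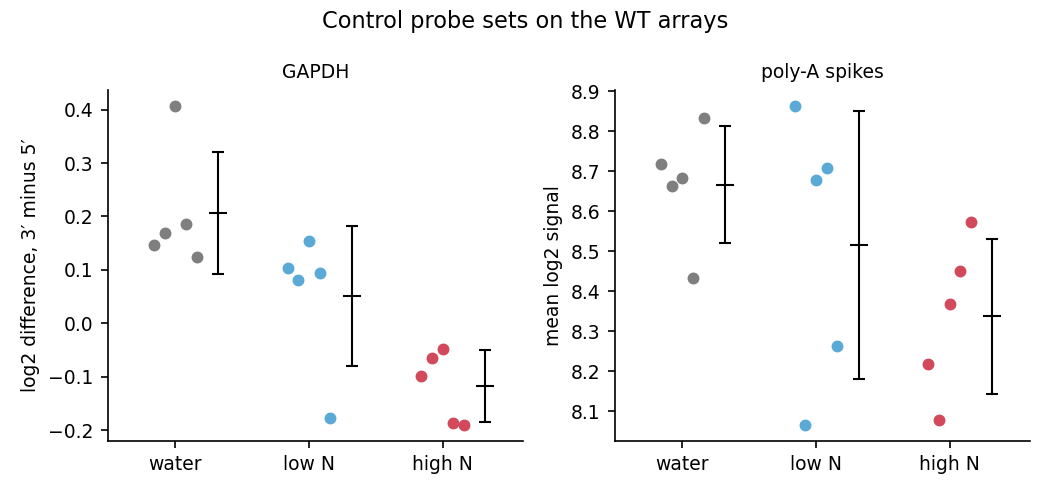
Control measures on the 15 WT arrays by treatment: the 3′ minus 5′ GAPDH difference and the mean of the poly-A spikes, both in log2 units. Points are arrays and bars the mean ± SD (n = 5); the 5 high N arrays lie between -0.19 and -0.05 for GAPDH, and 4 of the 5 low N arrays above 0.

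The label of the tissue was checked against its markers. TIP, a gene for a vacuolar water channel of root cells, read between 11.66 and 12.23 in high N and between 11.81 and 12.35 in low N. Of 7 shoot photosynthesis probe sets, 6 were under the signal filter, among them the light-harvesting genes CAB4, CAB5 and CAB6A, and PsbQ was at 0 on 1 of the 10 arrays. The extensin gene ext1 was also under the filter. Marker genes of arbuscule-bearing cells, the root cells in which mycorrhizal fungi branch, had no named probe set here, so the colonization of the WT roots was not examined through them.

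Nitrogen uptake and assimilation genes were all higher in high N than in low N by their mean, and none passed the test. The list has 5 probe sets of 4 genes. Their median difference was 0.37, against -0.01 over all probe sets, and 3 of the 5 were higher at an unadjusted p under 0.05, as were 4.84% of all probe sets. Those 3 were both probe sets of gts1, which measure the same gene, and that of gdh1. The mean over the list was 10.12 in high N (arrays between 9.7 and 10.55), 9.6 in low N (9.16 to 10.1) and 8.83 in water (8.63 to 9.05).

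The gene gts1 encodes a glutamine synthetase, the enzyme that fixes ammonium into glutamine. Its brighter probe set read 11.13, 11.32, 11.74, 11.79 and 11.84 on the high N arrays, against 9.66, 10.67, 10.76, 10.88 and 11.33 on the low N arrays. The water arrays read 9.10, 9.62, 9.64, 9.66 and 9.75. Every high N array exceeded the low N mean, and 3 of them the highest low N array, while the lowest low N array, replicate 3, fell inside the range of the water arrays. The means were 11.57 ± 0.32 in high N and 10.66 ± 0.62 in low N (SD, n = 5 each), 1.87-fold apart (log2 difference 0.91, SE 0.32, 95% interval 0.26 to 1.55). With limma the unadjusted p was 0.00807 and the adjusted p 0.537. Without low N replicate 3 the difference was 0.65 (adjusted p = 0.511). The dimmer gts1 probe set differed by 0.87 (interval 0.21 to 1.52), at 8.05 ± 0.53 in high N and 7.18 ± 0.67 in low N. Against water, gts1 differed by 1.10 in low N (limma adjusted p = 0.759) and by 2.01 in high N (adjusted p = 0.000751).

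The ammonium transporter gene AMT1-2 read 10.41, 10.55, 10.59, 10.73 and 10.75 in high N, against 10.03, 10.03, 10.14, 10.23 and 10.75 in low N. One low N array, replicate 2, lay just below the highest high N array (both 10.75 when rounded), and the other 4 lay below all high N arrays. The difference was 0.37 (SE 0.25, interval -0.14 to 0.88, limma adjusted p = 0.606), and 0.50 without that array. Against water AMT1-2 differed by 0.70 in low N (adjusted p = 0.759) and by 1.07 in high N (adjusted p = 0.00911).

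The glutamate dehydrogenase gene gdh1 read 11.62, 11.63, 11.67, 11.71 and 11.85 in high N, against 11.31, 11.43, 11.43, 11.47 and 11.57 in low N. These groups did not overlap. The difference was nevertheless 1.19-fold (log2 0.26, SE 0.12, interval 0.02 to 0.49, limma adjusted p = 0.55). Low N stood at the level of water for gdh1, with a difference of -0.02.

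GS2, the gene of the plastid glutamine synthetase, read 7.54, 8.05, 8.81, 9.08 and 9.86 in high N, against 7.56, 8.22, 8.52, 8.57 and 9.51 in low N. Both groups covered nearly the same range, wider than that of any other nitrogen gene. The difference was 0.19 (interval -0.80 to 1.19, limma adjusted p = 0.901), and its sign turned without high N replicate 1 (-0.10) or without low N replicate 4 (-0.04).

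**Figure D3:**
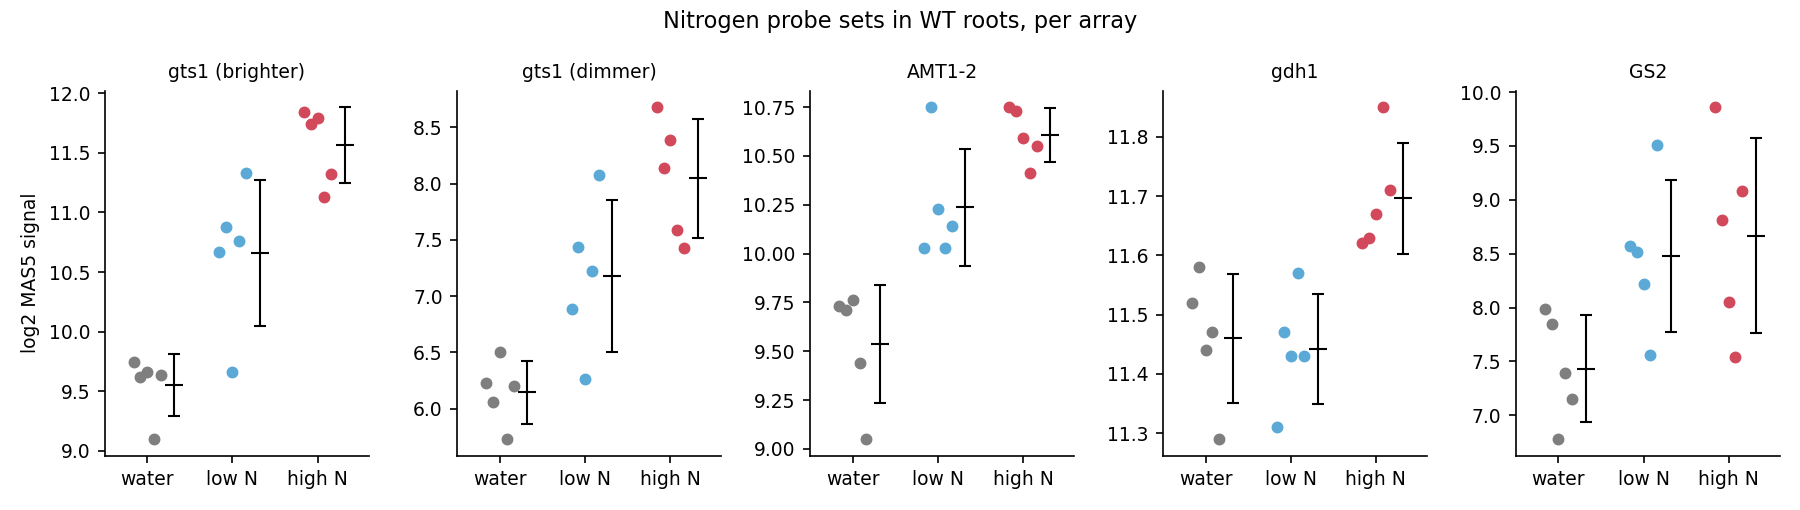
Log2 MAS5 signal of the 5 nitrogen probe sets on each WT array in water, low N and high N, each panel with its own axis. Points are arrays and bars the mean ± SD (n = 5); gdh1 is the probe set whose high N and low N arrays do not overlap, and gts1 has 1 low N array inside the water range.

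Among named genes higher in high N, the 4 of smallest p were UCP, SCOA, LOC543639 and PGH1, and none passed. UCP encodes an uncoupling protein of the inner mitochondrial membrane. It read 9.12, 9.16, 9.26, 9.30 and 9.36 in high N, against 8.32, 8.66, 8.70, 8.81 and 9.04 in low N. The groups did not overlap, at 9.24 ± 0.10 in high N and 8.71 ± 0.26 in low N (SD, n = 5 each), 1.45-fold apart (log2 difference 0.53, SE 0.15, limma adjusted p = 0.422).

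SCOA encodes the alpha subunit of succinyl-CoA ligase, an enzyme of the citric acid cycle. It read 10.12, 10.19, 10.27, 10.34 and 10.39 in high N, against 9.61, 9.86, 9.90, 9.90 and 9.97 in low N. There was again no overlap, and the fold was 1.33 (log2 difference 0.41, interval 0.18 to 0.65, limma adjusted p = 0.422). Against water SCOA differed by 0.25 in low N (adjusted p = 0.759) and by 0.66 in high N (adjusted p = 0.00166).

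The enolase gene PGH1, whose enzyme makes phosphoenolpyruvate in glycolysis, read 12.06, 12.07, 12.18, 12.31 and 12.35 in high N, against 11.90, 11.94, 11.96, 11.98 and 12 in low N. Its groups did not overlap either, and the difference was 0.24 (interval 0.08 to 0.40, limma adjusted p = 0.537). LOC543639, whose function the tables do not give, was higher by 0.26 with no overlap (limma adjusted p = 0.473).

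The other named genes of smallest p in the higher direction overlapped between the groups and had adjusted p-values from 0.537 to 0.55. Hxk2, a hexokinase gene, differed by 0.25, and TAL, for the transaldolase of the pentose phosphate pathway, by 0.14. mMDH1, a malate dehydrogenase gene named here for its small p in rmc, differed by 0.21 (adjusted p = 0.553). CGS, for the cystathionine gamma-synthase of methionine synthesis, differed by 0.29, and GSH1, for the first enzyme of glutathione synthesis, by 0.32. The 14-3-3 protein gene tft8 differed by 0.30 and BI-1, a gene of the cell death suppressor Bax inhibitor, by 0.20. LOC543836 showed 0.70 on a wide spread, with 7.74 to 9.42 in high N and 7.23 to 8.28 in low N.

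In the lower direction none of the named genes passed either, and those of smallest p included CIF1 and PSY2. PSY2 encodes a phytoene synthase, which makes the first carotenoid. It read 7.35, 7.50, 7.54, 7.57 and 7.88 in high N, against 7.66, 7.68, 8.31, 8.38 and 8.65 in low N. Of the high N arrays, 4 lay below every low N array, and the difference was -0.57 (SE 0.22, interval -1.02 to -0.12, limma adjusted p = 0.538). ZEP, for the zeaxanthin epoxidase that feeds abscisic acid synthesis, differed by -0.51 (interval -0.94 to -0.08).

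CIF1 encodes an inhibitor of invertase, the enzyme that splits sucrose. It read 10.48, 10.88, 10.89, 11.03 and 11.13 in high N, against 11.08, 11.10, 11.35, 11.51 and 11.63 in low N. Again 4 of the 5 high N arrays lay below every low N array. The difference was -0.46 (SE 0.16, interval -0.79 to -0.12, limma adjusted p = 0.537), and against water CIF1 differed by -0.20 in low N (adjusted p = 0.759) and by -0.65 in high N (adjusted p = 0.0121).

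PSBR encodes a subunit of photosystem II and is the one shoot marker over the filter. It read 8.98, 9.01, 9.29, 9.37 and 9.87 in high N, against 9.49, 9.78, 9.95, 10.36 and 10.46 in low N, a difference of -0.70 (interval -1.29 to -0.11, limma adjusted p = 0.55). The other 6 probe sets of that list ranged up to 5.24 in high N and 5.95 in low N. The blue-light receptor gene CRY1A differed by -0.42, the jasmonate receptor gene COI1 by -0.28 and the remorin gene rem-1 by -0.32. Rab1C, for a small GTPase of membrane traffic, read 9.69 to 9.86 in high N and 9.87 to 10.09 in low N, without overlap, a difference of -0.24. RAB1B, of the same family, differed by -0.13 and turned to 0.05 when scaled to the poly-A spikes. The translation factor gene eIF-5A1 differed by -0.41 (interval -0.78 to -0.04).

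**Figure D4:**
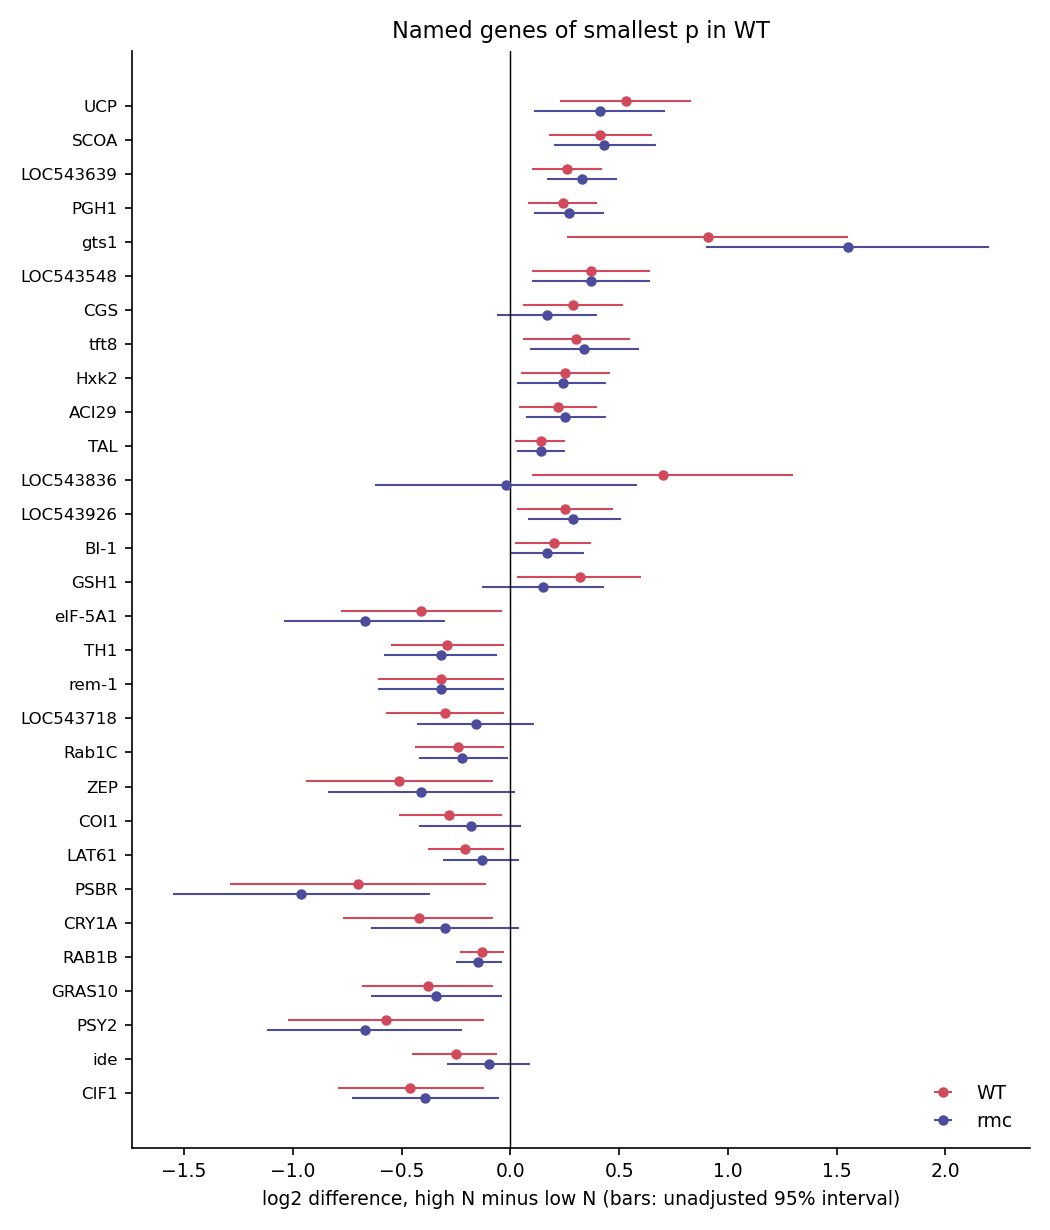
Log2 difference, high N minus low N, of the 15 named genes of smallest p in each direction in WT, with their values in WT and in rmc; bars are unadjusted 95% intervals. The WT values run from 0.91 for gts1 to -0.70 for PSBR, and in rmc LOC543836 is the one gene on the other side of 0, at -0.02.

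The unnamed probe set of smallest p read 8.07, 8.2, 8.35, 8.40 and 8.57 in high N, against 7.65, 7.76, 7.78, 7.99 and 8.02 in low N (log2 difference 0.48, limma adjusted p = 0.385). These groups did not overlap. The next unnamed probe set in that direction read 7.24, 7.25, 8.39, 8.44 and 8.53 in high N, against 6.36, 6.73, 6.73, 6.84 and 7.28 in low N. Its high N arrays split into 3 above 8 and 2 inside the upper end of low N, and the difference was 1.18 (interval 0.64 to 1.72, limma adjusted p = 0.385). In low N it stood 0.05 above water. In the lower direction, the 2 unnamed probe sets of smallest p differed by -0.46 and -0.28 (limma adjusted p = 0.422 each).

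The 18 gene lists held 227 tested probe sets, and none of these passed. Carbon supply genes centred near 0: over 16 probe sets for sugars, starch and organic acids the median was 0.09, 10 were higher and 6 lower, and Hxk2 alone had an unadjusted p under 0.05. The hexokinase gene hxk1 differed by 0.27, the fructokinase gene FRK3 by 0.24 and SPS, for the sucrose phosphate synthase, by -0.29. Amino acid and polyamine genes (10 probe sets) had a median of 0.05. In that list ODC, for the ornithine decarboxylase of polyamine synthesis, differed by 0.62, and the amino acid permease genes AAP1, AAP2 and AAP3 by 0.37, -0.12 and -0.21, with AAP2 at 0.06 when scaled to the poly-A spikes.

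Of 33 ethylene probe sets, 23 were lower and 10 higher in high N, with a median of -0.14, which turns positive under the poly-A scaling, and none had an unadjusted p under 0.05. The widest differences were those of ACO6, a gene for ACC oxidase, the enzyme that forms ethylene. Its brighter probe set read 7.16, 7.62, 7.71, 8.03 and 8.24 in high N, against 7.76, 7.83, 8.65, 8.91 and 9.04 in low N. The groups overlapped, and the difference was -0.68 (interval -1.48 to 0.11, limma adjusted p = 0.568). The other ACO6 probe sets differed by -1.0 (interval -2.12 to 0.12) and -0.80. EIN2, a central transducer of the ethylene signal, differed by -0.33, and ETR1, an ethylene receptor gene, by -0.18 (0.00 under the poly-A scaling).

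Isoprenoid and carotenoid genes lay mostly lower, with 8 of 10 probe sets below 0 and a median of -0.16, which is again positive under the poly-A scaling. Besides PSY2 they included Psy1, for a second phytoene synthase, with probe sets at -0.46 and -0.20. DXS, for the first step of the plastid isoprenoid pathway, stood at -0.33. The 11 probe sets for auxin, gibberellin, cytokinin and abscisic acid had a median of -0.22, with 8 below 0. IAA17, a repressor gene of auxin signalling, was among them at -0.85 (interval -1.79 to 0.09). Of 23 transcription factor probe sets, 16 were lower (median -0.10, positive under the poly-A scaling), and GBF12 (-0.54), WRKY2 (-0.25) and the MADS-box gene TDR6 (-0.37) had unadjusted p-values under 0.05.

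Jasmonate, wound and pathogenesis genes (19 probe sets) had a median of 0.05. TomloxE, a lipoxygenase gene, read 4.01 to 6.78 in high N and 5.87 to 6.92 in low N, a difference of -0.87 with an interval from -1.74 to -0.01. The antioxidant list, matched by symbol (21 probe sets, 14 higher), had a median of 0.06. MDHAR, which regenerates ascorbate, differed by 0.26 from low N to high N, whereas against water it differed by 0.79 in low N (limma adjusted p = 0.0909) and by 1.05 in high N (adjusted p = 0.000751). CEVI57 entered this list, and its counts, by its symbol alone and is not known to be an antioxidant enzyme. It was the highest of the list at 1.20 (interval -0.69 to 3.10). Its arrays ranged from 7.99 to 12.11 in high N and from 6.98 to 11.33 in low N.

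Cell cycle and DNA replication genes were read with dividing cells in mind, which are most frequent in root tips. The list was matched by symbol and was not limited to genes specific to dividing cells. The mean over 14 cell cycle and DNA replication probe sets was 8.44 in high N (arrays between 8.1 and 8.87), 8.26 in low N (7.6 to 8.7) and 7.99 in water (7.73 to 8.29). Their median difference was 0.15, with 9 higher and 5 lower and none at an unadjusted p under 0.05. PCNA, the sliding clamp of DNA replication, differed by 0.46 (interval -0.20 to 1.11). The highest members were P18 (0.78), CDKB1 (0.56) and CycA1 (0.53), and the lowest was krp1 (-0.22). P18, CDKB1 and CycA1 were named here after their values were seen. The part of dividing cells in the differences of other genes was not tested.

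Phosphate genes were represented by 3 probe sets. The phosphate transporter genes PT1 and PT2 differed by 0.32 and 0.05, and PT2 turned to -0.16 without high N replicate 3 and to -0.07 without low N replicate 5. TPSI1, a gene induced by phosphate starvation, differed by -0.36, with 1 high N array at 10.16 and the other 4 between 11.68 and 12.06. Cell wall remodelling (29 probe sets, median 0.09), metal homeostasis (11, median 0.00), ion and water transport (9, median 0.02), translation (11, median 0.02) and heat shock genes (4, median -0.02) were centred near the median of all probe sets. The single phenylpropanoid probe set tested differed by -0.02. Named members included cel7, a cellulase gene, at 0.57, TBG2, a galactosidase gene, at -0.44, and the metallothionein gene MT3 at -0.68 (interval -1.78 to 0.42). The small heat shock gene HSP17.4 read 5.99 to 9.56 in high N and differed by -0.73 (interval -2.0 to 0.54), or by -0.26 without high N replicate 3. RPS25, for a ribosomal protein, differed by 0.18.

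**Figure D5:**
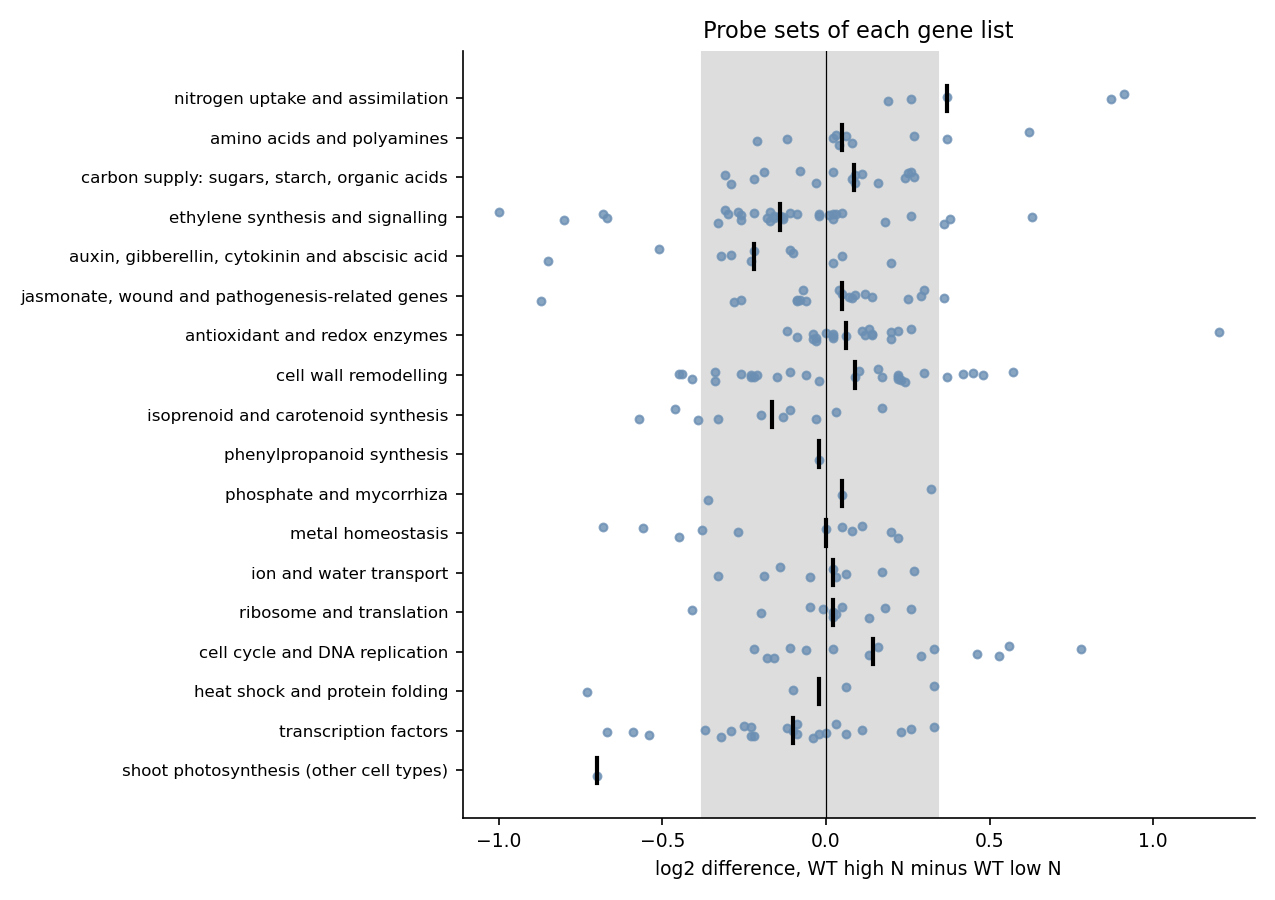
Log2 difference, WT high N minus WT low N, of each tested probe set in the 18 gene lists. Points are probe sets, black lines list medians, and the grey band the range from the 5th to the 95th percentile of all 7528 probe sets (-0.38 to 0.34); the nitrogen list alone has no point below 0 among lists of over 1 probe set.

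The same step was measured in rmc on other arrays, at doses the labels give in another unit. In rmc 53 probe sets passed (0.704%), 45 higher (0.598%) and 8 lower (0.106%) in high N, and 1775 had an unadjusted p under 0.05 (23.6%, of which 12.5% higher and 11.1% lower, as shares of all probe sets). The count in rmc depended on the setting: with only the 20 arrays of the 4 groups in the fit none passed (0, where the fit to all 30 arrays gave 53), and with poly-A scaling 2917 did. When the responses themselves were compared, WT minus rmc, 0 probe sets passed with limma (0.0%), 107 had an unadjusted p under 0.05 (1.42%) and the smallest adjusted p was 0.999. The greater count in rmc is therefore no test that the responses differ. The p-values of the difference leaned toward 1, with 107 probe sets in the bin under 0.05 and 472 in the bin from 0.95. The absence of calls does not show that the responses are alike.

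Most probe sets differed in the same direction in both genotypes. Of the 364 probe sets higher in WT at an unadjusted p under 0.05, 341 (93.7%) were also higher in rmc, and of the 308 lower ones 296 (96.1%) were lower, against 78.9% of all 7528 probe sets. The poly-A spikes in rmc averaged 8.14 ± 0.57 in high N and 8.71 ± 0.23 in low N (SD, n = 5 each), lower in high N as in WT. Scaled to the spikes, an alternative added after the data were seen, the median of all probe sets in rmc became 0.55, and 364 of the 364 were higher there but 38 of the 308 lower (12.3%). The 364 and the 308 were taken from the unscaled WT fit, and only the rmc values were scaled to the spikes. As the scaling adds one amount to every rmc difference, these counts do not test whether the direction is shared relative to the spikes. The shared direction of the lower probe sets is thus described relative to the array mean only. Of the 131 probe sets without overlap in the higher direction in WT, 127 (96.9%) were higher in rmc and 95 (72.5%) were so at an unadjusted p under 0.05 there. Of the 42 in the lower direction, 38 (90.5%) were lower in rmc and 23 (54.8%) at an unadjusted p under 0.05. Over all probe sets, 22.3% had the same sign and an unadjusted p under 0.05 in rmc. Across all probe sets the WT and rmc differences correlated at 0.63 (Pearson) and 0.70 (Spearman), a description over probe sets that share array scaling, sample preparation and probe brightness. Seen from the other side, all 45 probe sets that rose in rmc were higher in WT too, with a median of 0.23 in WT and 0.44 in rmc. Of the 8 that fell in rmc, 7 were lower in WT, with medians of -0.30 in WT and -0.62 in rmc.

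By gene, gts1 differed by 0.91 in WT and rose by 1.55 in rmc (limma adjusted p = 0.031, and 0.102 with the 20 arrays alone), and the difference of the responses was -0.64 with an interval from -1.56 to 0.27. The rmc arrays of gts1 read 11.17, 11.23, 11.73, 11.86 and 12.16 in high N, against 8.85, 10.02, 10.22, 10.65 and 10.67 in low N. The high N arrays thus covered like ranges in both genotypes. AMT1-2 differed by 0.37 in WT and 0.70 in rmc (adjusted p = 0.115), gdh1 by 0.26 and 0.32, and GS2 by 0.19 and 1.11 (adjusted p = 0.173). UCP differed by 0.53 in WT and 0.41 in rmc, SCOA by 0.41 and 0.43, and PSY2 by -0.57 and -0.67.

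Further genes were named for a small p in rmc or for the difference of responses. LOC543639 rose by 0.33 in rmc (adjusted p = 0.0413) beside 0.26 in WT, and GLX1, a glyoxalase gene, by 0.32 (adjusted p = 0.0451) beside 0.17. LOC543812 fell by 0.64 in rmc (adjusted p = 0.0336) beside -0.21 in WT. None of these 3 calls held with the 20 arrays alone (adjusted p of 0.116, 0.111 and 0.102), and LOC543812 stood at -0.08 in rmc with poly-A scaling (adjusted p = 0.749). Without the signal filter LOC543639 and GLX1 did not pass in rmc either (adjusted p of 0.0535 and 0.0604). Leaving out 1 WT array, which enters the fit through the shared spread, ended the call of LOC543639 without high N replicate 4 or 5 or low N replicate 3 (adjusted p up to 0.053). It ended that of GLX1 without high N replicate 1, 3, 4 or 5 or low N replicate 1, 3 or 4 (up to 0.0566). The brighter ACO6 probe set differed by -0.68 in WT and 0.32 in rmc, and the difference of these responses, -1.01, had an interval from -2.13 to 0.12. The second unnamed probe set described above differed by 1.18 in WT and 0.20 in rmc, with a difference of 0.99 (interval 0.22 to 1.75, unadjusted p = 0.0132). LOC543802 differed by 0.15 in WT and -0.40 in rmc (difference 0.54, interval 0.09 to 1.00).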

How the data were processed

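The authors deposited log2 MAS5 signals, 1 value per probe set and array; the submitters' processing notes name MAS5 and Affymetrix Expression Console, without versions. Their linear values have a 2% trimmed mean near 500 on each array, a scaling that hides any change shared by all transcripts. Per the labels' protocols 200 ng of RNA was amplified. Scan dates and batches were not among the labels, and batch effects were not tested. Precision is limited by the number of arrays.

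Of 10209 probe sets, 108 array and 63 reporter controls were left out, then the lowest 25% by mean log2 signal (under 5.612). Differences were fitted with limma 3.58.1 in R 4.3.3 (6 group means over all 30 arrays, eBayes with an intensity trend). Every p is two-sided, and adjusted p-values are Benjamini-Hochberg over 7528 probe sets per comparison, with a threshold of 0.05; intervals are unadjusted. Folds are 2 to the power of the log2 difference. The 4 control measures were compared by exact permutation, which cannot go below 0.00794. The fit was run on simulated data with independent noise and changes larger than most seen here. That run does not test whether smaller differences would be detected. Python 3.11.15, pandas 2.3.3 and matplotlib 3.10.9 served for tables and figures.

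Gene symbols came from the platform's annotation, part of which may be outdated: 909 probe sets (802 genes) had 1 symbol, 9129 none and 0 more than 1. A RefSeq gene table (SLM_r2.1) held 885 of the 909. Named among the tested were 690 probe sets (641 genes). Coordinates are not given, as the files name no build. Lists were matched by symbol, with 14 matches of another function left out. The members and the lists were chosen with earlier results of these data known. Named genes are the 15 of smallest p in each direction where fewer were called, each by its brightest probe set, all members of the nitrogen list, up to 4 of each other list by smallest p, the 2 unnamed probe sets of smallest p in each direction, and 5 genes of smallest p for rmc and for the difference of responses. The text leaves some out, and where it names further genes it says so. Alternatives were other normalizations, filters, sample sets and variance models, a replicate block and leaving out each WT high N or WT low N array.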

Additional observations from a re-analysis of the deposited data

Results flagged for a closer look

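Of 152 groups of 5 values examined, 5 held an array that stood apart from the other 4, measured as its gap to the nearest array over the range of the group (above 0.71), and chance gives about 1 in 20 groups. For TPSI1, the phosphate starvation gene, high N replicate 1 read 10.16 against 11.68 to 12.06 on the other high N arrays (0.804), and low N replicate 5 read 11.53 against 11.88 to 11.98 on the other low N arrays (0.774). For AMT1-2, low N replicate 2 read 10.75 against 10.03 to 10.23 (0.726). For BI-1, low N replicate 1 read 9.95 against 10.37 to 10.47 (0.815). The 3′ minus 5′ difference of GAPDH was -0.18 on low N replicate 5 against 0.08 to 0.15 on the other low N arrays (0.779).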

How the results depend on the processing

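Under all 23 alternatives 0 probe sets passed in either direction in WT, with a smallest adjusted p from 0.0652 (the 15 WT arrays alone) to 0.914 (poly-A scaling), and 0 passed for the difference of responses under the 21 that include rmc. The count of 672 at an unadjusted p under 0.05 was 113 with poly-A scaling and 1126 with the 15 WT arrays alone. Leaving out 1 array gave 349 to 933, with 349 without low N replicate 1, 390 without high N replicate 5 and 412 without low N replicate 4. The 53 calls in rmc became 87 with quantile normalization, 104 with median centring, 2917 with poly-A scaling, 34 with no filter and 82 with the lowest 50% left out. They became 0 with the 20 arrays of the 4 groups alone, 187 with the replicate block and 936 with array weights. Leaving out 1 WT array gave 45 to 56 through the shared spread, and no rmc array was left out. The causes were not tested. With the replicate number as a block the WT count was 0 called and 887 at an unadjusted p under 0.05. Same-numbered high N and low N arrays deviated together with correlations of 0.0367, 0.191, -0.255, 0.602 and 0.327. Differently numbered arrays did so with correlations from -0.592 to 0.584. Whether same-numbered samples share more than a number was not tested. Leaving out 1 array, the GAPDH difference ran from -0.226 (adjusted p = 0.0317 by exact permutation) to -0.144, the poly-A spikes from -0.29 to -0.09, the hybridization spikes from -0.073 to -0.01 and actin from -0.092 to -0.024. Of 72 gene results, 66 kept their sign in every alternative and none passed in any. Another filter, other groups left out, the replicate block, no intensity trend and robust variance leave the difference itself unchanged. The sign could not turn under those alternatives. With poly-A scaling RAB1B became 0.05, AAP2 0.06, ETR1 0.00 and TIP 0.03. Leaving out 1 array, GS2 ran from -0.10 (without high N replicate 1; -0.04 without low N replicate 4) to 0.48, PT2 from -0.16 (without high N replicate 3; -0.07 without low N replicate 5) to 0.25, and AAP2 from -0.30 to 0.00 (without low N replicate 5). With 5 arrays a group, the median 95% interval reached 0.30 to either side of its difference, and intervals were wider for genes of wide spread.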
